A study of Mus musculus with 41 samples.

Results

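The 3′ region of HSII is a stretch of the second intron of the mouse Il4 gene at the DNase I hypersensitive site of that name. Its members were chosen by position alone: every CpG on the minus strand, the strand in which Il4 is transcribed, within chr11:53430150-53430347 of mm9. That gave 5 of the 64 CpGs measured along Il4. They are called CpG38, CpG39, CpG40, CpG41 and CpG42 here, counted in the direction of transcription along all CpGs measured at the locus.

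T helper 2 (Th2) cells are CD4 T cells that make IL-4, and their identity depends on the transcription factor GATA3. HSII is known as an enhancer within Il4 that opens as naive T cells become Th2 cells; GATA3 binding at the amplified stretch was not analysed here. Methyl groups on CpGs can be lost when a cell divides without copying them, or by way of oxidation. TET enzymes turn 5-methylcytosine (5mC) into 5-hydroxymethylcytosine (5hmC), then 5-formylcytosine (5fC) and 5-carboxylcytosine (5caC). The DNA glycosylase TDG excises the last 2 forms so that base excision repair can put an unmodified cytosine in their place. Oxidised forms can also be lost without TDG, by dilution as cells divide, because methylation is not copied from them.

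The study measured cytosine modification in amplicons along Il4 in mouse CD4 T cells before and after Th2 differentiation. It used control cells and cells with deleted Tet genes, deleted Tdg or sgRNAs against Gata3. Of its 41 samples, 35 from 31 libraries were used here. Bisulfite sequencing (BS) covered 27 samples from 25 libraries, pyridine borane sequencing (PB) 6 samples from 4 libraries, and TET-assisted pyridine borane sequencing (TAPS) 2 libraries. Repeat sequencing runs of a library were averaged and counted once.

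All T cells came from spleen and lymph nodes of adult C57BL/6 mice. Naive cells (3 BS libraries, 1 TAPS library) were wild type. For the first Th2 cycle, naive cells were stimulated through CD3 and CD28 for 2 days with 1000 U/ml IL-4 and 1 µg/ml antibody to IFN-γ, then kept for 3 days in 20 U/ml IL-2, as the labels give it. For the second cycle, the cells rested for 1 day and were stimulated again for 1 day. The same doses of IL-4, antibody to IFN-γ and IL-2 were used, and the cells spent 4 days in IL-2. Wild-type Th2 cells of the first cycle gave 3 BS libraries and 1 TAPS library, called the Th2 replicates here.

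TET-iTKO cells carried floxed Tet1, Tet2 and Tet3, and Tdg-iKO cells floxed Tdg, in mice injected with tamoxifen to delete them. The paper reports that deletion of the floxed exons, measured by qRT-PCR after the first cycle, was high but not complete, and lowest for Tet2. The wild-type (WT) mice of both lines received tamoxifen too, and cells positive for a fluorescent reporter of Cre activity were sorted as naive CD4 T cells. TET-iTKO, Tdg-iKO and the WT cells of each line gave 2 BS libraries per cycle. A further pair, labelled Tdg-KO and wild type, used CD4-Cre, which acts from thymocyte development on, and gave 1 PB library each after the first cycle, as did Tdg-iKO and its WT. For the Gata3-KD groups, Cas9-expressing cells were transduced with a retrovirus carrying sgGATA3-1 or sgGATA3-2, or with the empty vector (mock), and sorted; each gave 1 BS library after the first cycle. The files hold DNA modification alone, so neither the identity of the cells nor the loss of the deleted proteins was checked against expressed genes.

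In BS, 5mC and 5hmC are read as C, and the level of a CpG is the percent of reads with C. In PB, 5fC and 5caC are read as T, and the level is 100 × T/(T + 0.5 × C), since reads of the opposite strand add to the C reads. In TAPS, 5mC and its oxidised forms are read as T, and the level is the percent of reads with T. Each level rests on 100 or more reads: between 215 and 19775 in BS, with a median of 1981, between 12431 and 29147 in PB and between 11156 and 28653 in TAPS. Intervals given below are 95% Wilson intervals of the read shares. The reads are PCR copies and carry no molecular identifiers, so the intervals cover counting error and nothing beyond it. In these bulk populations, fewer demethylated cells and less demethylation per cell cannot be told apart.

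The amplified region is 198 bases long and lies within the Il4 gene (chr11:53416484-53432171, mm9, minus strand). It falls in intron 2 (chr11:53427559-53431671, 4113 bases) of the 4-exon transcript ENSMUST00000000889.6, at 1324 bases from exon 2 and 2591 bases from exon 3, and it is intronic in 4 of 4 annotated Il4 transcripts. Its sequence is shown because the levels below are read from it, on the minus strand from 5′ to 3′, with capitals marking the 5 CpGs in the order CpG38 to CpG42.
HSII 3′ region: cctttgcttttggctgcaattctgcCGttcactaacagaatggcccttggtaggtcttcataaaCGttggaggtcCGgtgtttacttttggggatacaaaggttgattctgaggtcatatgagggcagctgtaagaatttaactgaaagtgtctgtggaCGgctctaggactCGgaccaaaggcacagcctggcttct

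CpG38 (chr11:53430322), CpG39 (chr11:53430283) and CpG40 (chr11:53430272) lie in the upstream part of the amplicon, with 39 and 11 bases from each to the next. CpG41 (chr11:53430188) follows after 84 bases and CpG42 (chr11:53430175) after 13 more, so the region holds a group of 3 and a pair of CpGs. CpG38 and CpG42 directly adjoin the primers. The region has a GC content of 48.0%, against a median of 43.9% in 599709 windows of the same length on chromosome 11, of which 8.99% hold 5 or more CpGs. The letters GATA occur once on either strand, at chr11:53430252-53430255, 17 bases from CpG40; 63.7% of the windows hold them. The bZIP letters TGANTCA (found in 5.78% of windows), TTC followed by 3 or 4 of any base and GAA for STAT factors (11.6%) and TGTGGT for RUNX factors (14.7%) have no match in the region.

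In naive cells the region was methylated, with 1 CpG set apart. The mean over the 5 CpGs was 90.7%, 90.3% and 90.9% in the 3 libraries (90.7% ± 0.316, SD, n = 3). CpG39 was the lowest CpG in 3 of 3 libraries, at 72.3%, 70.2% and 77.9% (73.5% ± 3.97), while the other 4 lay between 90.9% and 97.8%. The interval of CpG39 was 70.1–74.3% in replicate 1, 63.9–75.8% in replicate 2, which had 225 reads there, and 75.9–79.7% in replicate 3. CpG38 read 95.4%, 97.3% and 95.2%, and mean levels were 95.9% ± 1.96 at CpG40, 93.1% ± 2.09 at CpG41 and 94.9% ± 0.487 at CpG42 (SD, n = 3), so these 4 CpGs differed by little more than their spread.

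After the first cycle the region had lost part of its methylation in each WT library. Over 7 libraries (3 Th2 replicates and 2 from each floxed line), the mean of the 5 CpGs was 63.6% at the lowest, 68.8% at the median and 82.5% at the highest, all below the lowest naive library. The Th2 replicates spread widely, at 64.2%, 72.5% and 82.5%, whereas the WT libraries of the TET line (65.9% and 63.6%) and of the TDG line (69.0% and 68.8%) lay close together. Th2 replicate 3 was the highest of the 7 libraries at each of the 5 CpGs. Its mean levels in CNS1, an enhancer upstream of the Il4 promoter (86.5%), and in the amplicon from intron 1 to exon 2 (87.4%) were high as well.

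CpG by CpG, the 7 first-cycle WT libraries kept the low level of CpG39 and separated the downstream pair from CpG38 and CpG40. CpG38 ranged from 73.3% to 89.4% with a median of 78.1%, and CpG40 from 73.2% to just under the top of CpG38, with a median of 77.9%. CpG39 ranged from 50.4% to 61.3% with a median of 52.0%. The downstream pair lay between these: CpG41 ranged from 56.4% to 84.9% with a median of 63.8%, and CpG42 from 61.4% to 87.7% with a median of 71.5%.

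The change from naive cells was tested between the 3 naive libraries and the 3 Th2 replicates. For this and the tests between groups below, a limma-moderated quasi-binomial model was fitted to C and T reads at every Il4 CpG in 22 BS libraries of 10 groups, and a CpG was called when its two-sided p, adjusted by Benjamini-Hochberg over all CpGs tested, was under 0.05. Of the 56 CpGs tested, 57.1% were called, and 5 of 5 HSII CpGs were among them, all lower. Levels fell by 15.3 points at CpG38, by 17.3 at CpG39, by 14.3 at CpG40, by 23.1 at CpG41 and by 18.0 at CpG42, with adjusted p from 0.000463 to 0.00124 in the quasi-binomial test. The median change was -17.3 points in HSII and -9.00 over all CpGs tested. The latter include exon 3, where 0 of 5 CpGs were called, and CpGs of CNS2, a regulatory region 3′ of Il4. By the paper, most CNS2 CpGs have little methylation in naive cells already. Mean falls were 17.6 points in HSII, 13.7 in CNS1 and 11.9 from intron 1 to exon 2. The odds of a C read at CpG41 in Th2 cells were 0.167 times those in naive cells (95% interval 0.0789 to 0.355). The study describes its BS data as coming from independent experiments, but nothing ties these libraries to animals or cultures, so p-values measure only the spread between libraries, which may in part be technical.

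A further cycle took away more. In the 4 second-cycle WT libraries, the mean of the 5 CpGs was 36.7% and 31.4% in the TET line and 28.2% and 24.3% in the TDG line, all below the lowest first-cycle library. Group means were 34.1% ± 3.76 and 26.2% ± 2.76 (SD, n = 2 each). At this stage CpG39 stood at 19.5% and CpG41 at 23.1% as means of both lines, CpG42 at 30.7%, CpG38 at 36.8% and CpG40 at 40.6%.

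Between the cycles in WT cells of both lines, 82.6% of the 46 CpGs tested were called and 5 of 5 HSII CpGs were, all lower. The levels fell by 39.6 points at CpG38, by 32.7 at CpG39, by 36.2 at CpG40, by 38.1 at CpG41 and by 36.9 at CpG42, with adjusted p from 6.58e-08 to 6.13e-07 by the quasi-binomial test. The region kept 45.1% of its first-cycle level, next to 44.3% in CNS1 and 72.3% from intron 1 to exon 2. Between naive and second-cycle WT cells, 75% of 56 CpGs and 5 of 5 HSII CpGs were called, with losses from 54.0 points at CpG39 to 69.9 points at CpG41. Relative to the naive level, CpG41 kept 24.9%, CpG39 26.5%, CpG42 32.4%, CpG38 38.3% and CpG40 42.3%, so CpG39, the lowest at the start, kept nearly as small a share as CpG41. Exon 3, the amplicon downstream of the region, stayed at 95.9% in naive cells and 95.7% or more as the mean of each line and cycle, and 0 of its 5 CpGs were called in either comparison.

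The order of the CpGs varied little between libraries. Over the 11 first-cycle libraries of WT, TET-iTKO and Tdg-iKO cells, CpG39 was the lowest CpG in 11, CpG41 was below CpG42 in 11, and CpG42 was below CpG40 in 11. In the 8 second-cycle libraries CpG41 was below CpG42 in 8 and CpG42 below CpG40 in 8, while CpG39 was below CpG41 in 7. CpG38 and CpG40 changed places: CpG38 was the lower of the pair in 4 of 11 first-cycle libraries and in 7 of 8 second-cycle libraries. In naive cells CpG41 was below CpG42 in 2 of 3 libraries.

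WT cells of the TDG line lost more between cycles than those of the TET line, from 68.9% ± 0.176 to 26.2% ± 2.76 against 64.8% ± 1.60 to 34.1% ± 3.76 (SD, n = 2 each). The gap was widest at the downstream pair: CpG42 fell by 47.8 points in the TDG line and by 25.9 in the TET line, and CpG41 by 46.7 and 29.4 points. Tested as a difference between lines, a comparison added once the levels had been seen, 4.35% of 46 CpGs were called (CpG14 and CpG15 in CNS1, named after their values were seen) and 0 of 5 HSII CpGs, although 2 had an unadjusted p under 0.05 in the quasi-binomial model and limma called 0. The adjusted p was 0.0732 at CpG42 and 0.118 at CpG41 by the quasi-binomial test. CpG42 was called without second-cycle WT replicate 2 of the TET line (adjusted p = 0.0316 by the quasi-binomial test) or second-cycle WT replicate 1 of the TDG line (adjusted p = 0.0448), and the number called over all CpGs ran from 0 to 16 as each of the 8 libraries was left out.

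In TET-iTKO cells the region still lost methylation. The first-cycle libraries stood at 77.2% and 73.5% (75.3% ± 2.63, SD, n = 2), between the naive libraries and the WT libraries of the same line, and the second-cycle libraries at 38.8% and 42.2% (40.5% ± 2.37), above the 4 WT libraries of that cycle. The fall from the naive mean was 15.3 points in the first cycle, 59.2% of the fall in WT cells of the line, and 50.2 points by the second, 88.7% of that in WT cells. In CNS1 the same share was 6.10% and then 6.30%, and from intron 1 to exon 2 it was -0.273% and then 14.8%.

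TET-iTKO Th2 cells were also set against the naive libraries. Those were wild type, so in these comparisons genotype and differentiation cannot be told apart. Between naive and first-cycle TET-iTKO cells, 9.26% of 54 CpGs were called and 5 of 5 HSII CpGs were, so the 5 calls were all in HSII; 11 CpGs had an unadjusted p under 0.05. Levels fell by 11.6 points at CpG38, by 18.9 at CpG39, by 12.2 at CpG40, by 20.4 at CpG41 and by 13.5 at CpG42, with adjusted p from 0.0124 to 0.0129 by the quasi-binomial test, against a median of -0.265 points over all CpGs tested. These calls rested on single libraries: 0 of the 5 remained without naive replicate 1, 0 without naive replicate 3, 2 without naive replicate 2, 1 without TET-iTKO replicate 2 and 4 without TET-iTKO replicate 1. The falls themselves kept their direction in each of those fits, between 8.86 and 24.3 points.

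By the second cycle the levels were further below those of naive cells. From naive to second-cycle TET-iTKO cells, 22.2% of 54 CpGs were called, 9 lower and 3 higher, and 5 of 5 HSII CpGs were called lower, with losses from 44.4 points at CpG38 to 59.5 points at CpG41 and adjusted p from 7.80e-07 to 8.85e-07 in the quasi-binomial test. Between the cycles, 11.7% of 60 CpGs and 5 of 5 HSII CpGs were called in TET-iTKO cells, and the only calls outside the region were CpG32 and CpG36 between intron 1 and exon 2, named after their values were seen. CpG42 fell by 41.1 points, CpG41 by 39.1, CpG40 by 33.0, CpG38 by 32.8 and CpG39 by 28.1, with adjusted p from 9.44e-05 to 0.000400 by the quasi-binomial test. With the replicate number as a block in a fit of the compared groups alone, the HSII calls of both comparisons were lost, at unchanged falls. At CpG38 the adjusted p of that quasi-binomial test was 0.183 from naive cells and 0.357 between cycles. The region kept 53.7% of its first-cycle level in TET-iTKO cells, close to the 52.6% in WT cells of the TET line. The falls of the 5-CpG mean between cycles were 34.8 points in TET-iTKO and 30.7 in those WT cells. In TET-iTKO cells CNS1 kept 98.2% and the amplicon from intron 1 to exon 2 kept 94.1%, against 54.8% and 76.1% in WT cells of the line.

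Set against WT cells of the line in the first cycle, TET-iTKO cells were higher at CpG38 and CpG42. Of 60 CpGs, 58.3% were called, all higher, and 2 of 5 HSII CpGs were; 4 of the 5 had an unadjusted p under 0.05. CpG42 was 81.4% in TET-iTKO and 63.4% in WT cells, 17.9 points apart (adjusted p = 0.00633 by the quasi-binomial test, 2 of 2 libraries above both WT libraries). CpG38 was 84.4% and 74.3%, 10.1 points apart (adjusted p = 0.0495 by the same quasi-binomial test). CpG41 (72.7% and 58.4%, adjusted p = 0.0607) and CpG40 (83.7% and 74.6%, adjusted p = 0.0705) were higher without passing the quasi-binomial test. CpG39 was 54.5% in TET-iTKO and 53.1% in WT cells, with a fall from naive that was 92.7% of that in WT. The call at CpG38 was lost without any 1 of the 4 libraries, with adjusted p from 0.0549 to 0.238 in the quasi-binomial test, and that at CpG42 was lost without TET-iTKO replicate 1 (adjusted p = 0.0740).

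In the second cycle CpG38 alone in HSII passed the test against WT cells. Of 60 CpGs, 68.3% were called and 1 of 5 HSII CpGs was, CpG38, at 51.5% in TET-iTKO and 39.4% in WT cells (adjusted p = 0.0399 by the quasi-binomial test, 2 of 2 libraries above both WT libraries). Its call was lost without TET-iTKO replicate 2 or WT replicate 2, with an adjusted p of up to 0.224 in the quasi-binomial test. CpG40 was 8.48 points higher, CpG41 4.65, CpG39 4.15 and CpG42 2.71, with none of these past the threshold. As each library was left out, the difference ran from 5.05 to 11.9 points at CpG40 and from 1.275 to 7.03 at CpG39. At CpG41 and CpG42 it changed sign, as given further below. The change of the TET-iTKO effect between cycles was tested directly: 0% of 60 CpGs were called by the quasi-binomial model and 0 by limma, with 14 at an unadjusted p under 0.05. CpG42 was among those, with an effect that changed by -15.2 points between the cycles (adjusted p = 0.181 by the quasi-binomial test), and 0 of 5 HSII CpGs passed.

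A single value per library, the mean of the 5 CpGs, was compared by exact permutation of the labels within each cycle. TET-iTKO (2 per cycle) was set against WT of both lines (4 per cycle). This treats the libraries of the first and second cycle as independent. Second-cycle cells are first-cycle cells stimulated again, and the labels do not say whether libraries of the cycles share animals or cultures. If they do, the permutation p-values here and for Tdg-iKO below may be too small. TET-iTKO cells were 8.51 points higher in the first cycle and 10.3 in the second, 9.43 on average (two-sided exact permutation p = 0.00444, the smallest that 225 permutations can give), and 2 of 2 libraries exceeded the 4 WT libraries of these lines in each cycle. Against WT of the TET line alone the differences were 10.6 points in the first cycle and 6.41 in the second, so which cycle had the larger difference depended on the WT libraries used. Relative to CNS1 of the same library, HSII was on average 34.7 points lower in TET-iTKO than in WT cells (difference -34.7, exact permutation p = 0.00444), with -18.8 points in the first cycle and -50.5 in the second. Relative to the amplicon from intron 1 to exon 2, the difference was -15.9 points (exact permutation p = 0.00444). The effect of TET deletion on the level of HSII was thus smaller than that on either of those regions. The WT libraries themselves had an SD of 2.56 points in the first cycle and 5.27 in the second (n = 4 each). With the 3 Th2 replicates added to the first-cycle WT libraries, which was chosen after seeing the data, the HSII difference was 8.08 points (exact permutation p = 0.0370), and Th2 replicate 3 (82.5%) stood above both TET-iTKO libraries. With WT cells of the TET line alone, the design cannot reach an exact permutation p below 0.0556, which each of the 3 differences gave.

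Tdg-iKO cells followed WT cells in both cycles. The mean of the 5 CpGs was 67.0% and 70.0% in the first cycle (68.5% ± 2.15, SD, n = 2), on either side of the WT libraries of the line, and 28.8% and 29.9% in the second (29.3% ± 0.755), just above them. The fall from naive cells was 102% of that in WT cells of the line in the first cycle and 95.2% by the second. Against WT cells of the line, 0% of 46 CpGs were called in the first cycle and 0% of 63 in the second, so 0 of 5 HSII CpGs were; the quasi-binomial model gave 0 CpGs at an unadjusted p under 0.05 and limma called 0 in each. The differences at single HSII CpGs ran from -1.96 points at CpG41 to 1.34 at CpG39 in the first cycle and from 1.65 at CpG40 to 4.52 at CpG38 in the second. At CpG38 in the second cycle the 95% interval of the odds ratio was 0.785 to 1.88.

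Between the cycles, 80.4% of 46 CpGs and 5 of 5 HSII CpGs were called in Tdg-iKO cells, with losses from 33.9 points at CpG39 to 42.4 at CpG42 and adjusted p from 2.39e-06 to 2.13e-05 in the quasi-binomial test. The region kept 42.8% of its first-cycle level. The change of the Tdg-iKO effect between cycles gave 0% of 46 CpGs called, 0 of 5 in HSII, with 0 at an unadjusted p under 0.05 in the quasi-binomial model and 0 called by limma. Averaged over both cycles, the 5-CpG mean differed from that of the WT libraries of both lines together by 0.428 points (two-sided exact permutation p = 0.853), less than the spread between WT libraries. Against WT of the TDG line alone the difference was 1.36 points (exact permutation p = 0.500), with -0.408 in the first cycle and 3.12 in the second. The difference from both lines together was 1.66 points in the first cycle and -0.804 in the second, and its average over the cycles changed sign without Tdg-iKO first-cycle replicate 2 (-0.332), TDG-line WT second-cycle replicate 2 (-0.552) or TET-line WT first-cycle replicate 2 (-0.105).

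The Gata3 sgRNAs asked whether the first-cycle loss depends on GATA3. The guides are shown because they define these groups, with capitals marking the PAM beside each target in mm9. The target of sgGATA3-1 lies in coding exon 2 of Gata3 at chr2:9799015-9799034 (minus strand) and that of sgGATA3-2 in coding exon 3 at chr2:9796041-9796060 (minus strand).
sgGATA3-1: ctactacggaaactccgtcaGGG
sgGATA3-2: ccgggttcggatgtaagtcgAGG

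Each HSII CpG was more methylated with either sgRNA than in mock cells. The mean of the 5 CpGs was 62.5% in mock, 80.8% with sgGATA3-1 and 78.4% with sgGATA3-2, from 4780 to 14825 reads per CpG; none of these groups, nor those of PB and TAPS, had a replicate library. CpG41 was 55.9% (54.6–57.1%) in mock, 79.9% (lower bound 78.8%) with sgGATA3-1 and 76.2% (75.1–77.2%) with sgGATA3-2. CpG42 was 62.9% (61.6–64.1%), 86.3% (85.3–87.2%) and 79.6% (78.5–80.6%) in the same order. Against mock the downstream pair gained most, 24.1 and 20.3 points at CpG41 and 23.4 and 16.7 at CpG42 with sgGATA3-1 and sgGATA3-2. The upstream group gained less: 15.3 and 14.5 points at CpG38, 15.6 and 15.0 at CpG40, and 13.1 and 12.9 at CpG39, where the levels rose from 49.1% to 62.3% and 62.1%.

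With a call set at 10 points or more in the same direction for both sgRNAs, 42.2% of 64 CpGs were called, all higher, and 5 of 5 HSII CpGs were. The median difference was 15.6 and 15.0 points in HSII and 8.80 and 8.41 points over all CpGs for sgGATA3-1 and sgGATA3-2. Relative to the fall from the naive mean to mock, the HSII difference came to 64.9% and 56.3%. The same share was 34.0% and 36.2% in CNS1, where 11 of 17 CpGs were called, and 82.1% and 64.3% from intron 1 to exon 2, where 4 of 9 were; exon 3 changed by -0.300 and -0.109 points. The mock library stood below the 7 other WT libraries of the first cycle, and Th2 replicate 3 (82.5%) stood above both sgRNA libraries. Against the mean of those 7 libraries, a comparison chosen after seeing the data, each HSII CpG was higher with either sgRNA, and 1 of 5 was called, CpG41, among 6 of 46 CpGs. The gains with sgGATA3-1 and sgGATA3-2 were 15.0 and 11.2 points at CpG41, 9.32 and 8.64 at CpG40, 9.03 and 8.22 at CpG38, and 8.42 and 8.23 at CpG39. At CpG42 the gain was 14.7 points with sgGATA3-1, but with sgGATA3-2 (79.6% against 71.6%) it was the smallest of the 5, so the order of the gains given against mock did not hold there. The CNS1 mean of those 7 libraries was 69.9%, next to 69.4% with sgGATA3-1 and 70.1% with sgGATA3-2. From intron 1 to exon 2 it was 78.8%, next to 90.4% and 87.0%.

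PB looked for 5fC and 5caC, the forms that TDG removes, after the first cycle. In Tdg-iKO cells the 5 CpGs averaged 0.426%, next to 0.343% in WT cells and to 0.228% and 0.259% at the 20 cytosines of the region outside CpGs, which serve as background. At single cytosines outside CpGs the level reached 0.542% in Tdg-iKO and 0.637% in WT cells. The highest HSII CpG in Tdg-iKO cells was CpG38 at 0.659% (0.535–0.816%), against 0.237% (0.165–0.333%) in WT cells, and CpG39 stood at 0.576% against 0.291%, CpG41 at 0.441% against 0.224%. CpG40 (0.256% against 0.489%) and CpG42 (0.200% against 0.475%) were lower in Tdg-iKO than in WT cells. On the opposite strand, an alternative chosen after seeing the data, the order at these and at CpG38 was the reverse, with 0.516% against 0.216% at CpG40, 0.479% against 0.229% at CpG42 and 0.404% against 0.524% at CpG38. CpG41 (0.641% against 0.300%) and CpG39 (0.378% against 0.310%) were higher in Tdg-iKO on both strands. The 5 CpGs averaged 0.484% against 0.316% on the opposite strand, where single cytosines outside CpGs reached 0.545% and 0.475%. With a call set at 1 point or more, 34% of 47 CpGs were called and 0 of 5 HSII CpGs were, on either strand; in CNS1 the mean was 2.20% in Tdg-iKO and 0.471% in WT cells.

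In the CD4-Cre pair, 48.9% of 47 CpGs were called and 1 of 5 HSII CpGs was, CpG40, at 1.24% (1.02–1.50%) in Tdg-KO and 0.233% (0.161–0.336%) in WT cells. CpG41 went the other way, at 0.221% in Tdg-KO and 1.14% in WT cells. CpG39 was 0.601% against 0.0998%, CpG38 0.678% against 0.474%, and CpG42 0.0442% against 0.0777%. The 5 CpGs averaged 0.556% and 0.405%, whereas CNS1 averaged 4.78% in Tdg-KO and 0.279% in WT cells. The 20 cytosines outside CpGs in the region averaged 0.303% in Tdg-KO and 0.463% in WT cells, so the 5-CpG mean was above this background in Tdg-KO and below it in WT cells. Single ones reached 1.47% and 1.25%, above each HSII CpG. On the opposite strand CpG41 turned around, at 1.07% in Tdg-KO and 0.261% in WT cells, CpG38 was 0.801% against 0.165% and CpG40 0.555% against 0.220%. CpG39 turned to 0.0265% in Tdg-KO and 0.0761% in WT cells, and CpG42 was 0.0847% against 0.225%. On that strand the 5 CpGs averaged 0.507% and 0.189%, and 0 of 5 were called, against 24 over all CpGs. Its 39 cytosines outside CpGs averaged 0.407% in Tdg-KO and 0.358% in WT cells, with single ones up to 1.28% and 1.22%.

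TAPS gave a separate reading of the loss between naive and first-cycle Th2 cells, with oxidised forms counted too. The mean of the 5 CpGs was 92.1% in naive and 59.9% in Th2 cells, a change of -32.2 points. In naive cells CpG39 was again the lowest, at 77.2% (76.5–77.8%), and CpG41 was next at 84.6% (84.0–85.3%), while CpG38, CpG40 and CpG42 read 99.6%, 99.6% and 99.3%. In Th2 cells CpG39 was 45.4%, CpG42 54.1%, CpG41 55.7%, CpG40 70.2% and CpG38 73.9%. With a call set at 10 points or more, 80.9% of 47 CpGs were called, all lower, and 5 of 5 HSII CpGs were. Levels fell by 45.2 points at CpG42, by 31.8 at CpG39, by 29.4 at CpG40, by 28.9 at CpG41 and by 25.7 at CpG38, and the median change was -29.4 points both in HSII and over all CpGs, CpG40 being the median in each. The sources used here give no formula for TAPS levels. With C reads halved as in PB, chosen after seeing the data, the mean fall in HSII was 21.3 points. Single falls then ran from 14.8 points at CpG38 to 29.4 at CpG42. On the opposite strand, also chosen after seeing the data, the mean was 90.8% in naive and 59.9% in Th2 cells.

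Conversion and repeat runs bound the precision of these levels. At the 20 cytosines of the region outside CpGs, C was read in 0.157% to 0.325% of BS reads, depending on the library. In TAPS, T at those cytosines made up 0.771% of reads in naive and 0.0513% in Th2 cells. A pair of runs of the same BS library differed by up to 2.03 points at an HSII CpG, over 2 such pairs, and separate libraries of a group by 2.07 to 27.4 points over 14 pairs, as the largest difference in each pair. The PB runs of a library differed by up to 0.264 points in WT cells, at CpG40 (0.620% and 0.357%). In Tdg-iKO cells they differed by up to 0.214 points, at CpG42 (0.307% and 0.0925%). These were as much as some of the PB differences between Tdg-iKO and WT cells. WT CpG38 read 0.355% and 0.119%.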

How the data were processed

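The authors mapped paired-end amplicon reads to mm9 with BSMAP (version not given in the sources used here) and deposited raw counts for each cytosine of a strand: reads showing C, and reads showing either C or T. From these counts, levels were computed for each HSII CpG with 100 or more reads. Levels were averaged and reads added up over the runs of a library. Groups came from the labels. The members and lists were chosen with earlier results of these data known.

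C and T counts of 22 libraries in 10 groups were fitted per CpG in R 4.3.3 by quasi-binomial regression, with Williams weights from a common between-library variance (0.00953), dispersion moderated by limma 3.58.1 and not below 1, and an F-test of each contrast on the logit scale. Benjamini-Hochberg adjustment covered all Il4 CpGs tested, and CpGs under an adjusted p of 0.05 were called. The script was tested on simulated data. Region means were compared by exact permutation within cycle. Without replicates, CpGs were called at a difference of 10 points (BS, TAPS) or 1 point (PB). Levels, intervals and permutations were computed with numpy 2.4.6, pandas 2.3.3 and scipy 1.17.1 under Python 3.11.15. All 5 HSII CpGs were named in each comparison, with other CpGs given as region means and counts, and motifs were searched on both strands.

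Alternatives were a minimum of 20 or 500 reads, limma on log2((C + 1)/(T + 1)), and a fit of the compared groups alone, without or with a replicate block. Others were runs kept apart, each library left out, means weighted by reads and WT of the same line only. C reads of PB not halved, single PB runs and other thresholds were also used. After seeing the data, the opposite strand, C reads of TAPS halved, crossed replicate numbers, the comparison of WT lines, another reference for the sgRNAs and the Th2 replicates as added WT libraries were included. Macrophage samples were left out, since they are not T cells.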

Additional observations from a re-analysis of the deposited data

Results flagged for a closer look

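Of 18 groups of values examined, each over 4 or 7 WT libraries, 2 held a library far from the others. Chance sets a library apart in about 1 in 20 groups, but these groups share libraries. They are therefore not independent, and the count cannot be set against that rate. In the 7 first-cycle WT libraries, Th2 replicate 3 stood above the rest at CpG38, at 89.4%, and at CpG41, at 84.9%.

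A few reads also lay where the BS comparisons did not look. They are counted here as base calls summed over the HSII CpGs, so a read that spans several CpGs is counted at each. The unstimulated macrophage BS library, sample 1, held 20 calls on the plus strand, with at most 5 at a CpG, and 15 on the minus strand, with at most 4, all of them C. The macrophages were derived from bone marrow, and their stimulus is KLA by the labels. The macrophage library stimulated for 6 h, sample 1, held at most 3 at a CpG. It had 12 calls on the plus strand, all C, and 14 on the minus strand, of which 8 were C. In the first-cycle WT BS library of the TDG line, sample 2, the plus strand held 16 calls, all C, with at most 4 at a CpG. The plus strand of first-cycle Tdg-iKO, sample 2, held 5 calls, and that of macrophages stimulated for 24 h, sample 1, held 4. These were all C, with at most 1 at a CpG. The BS primers amplify the minus strand, and naive T cell libraries had no plus-strand reads there.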

How the results depend on the processing

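The loss of methylation in HSII from naive cells (WT and TET-iTKO) and between cycles (WT, TET-iTKO and Tdg-iKO) kept its direction under each alternative run. Naive cells against Tdg-iKO was not tested. A minimum of 500 reads left 0 HSII CpGs to test against naive cells, because naive replicate 2 had 215 to 225 reads.

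Some calls in HSII changed. For TET-iTKO against WT in the first cycle (2 called), limma gave 1, a minimum of 20 reads 1 and leaving out a library 0–1, while the compared groups alone gave 2 with CpG41 in place of CpG38. In the second cycle (1 called), limma gave 0, the compared groups alone 0 and leaving out a library 0–1. For naive to first-cycle TET-iTKO cells (5 called), leaving out a library gave 0–4. For the WT lines (0 called), runs kept apart gave 1 and leaving out a library 0–1. For the Gata3 sgRNAs (5 called), a threshold of 20 points gave 1 and the 7 other WT libraries as reference 1. For PB in the CD4-Cre pair (1 called), C reads not halved, a threshold of 2 points and the plus strand each gave 0. A threshold of 0.5 points gave 3, with CpG39 and CpG40 higher in Tdg-KO and CpG41 lower. The cause was not tested.

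In the exact permutation tests with WT of the same line only, the 3 TET-iTKO differences were 8.50, -37.7 and -16.7, at the smallest p possible, 0.0556. The Tdg-iKO difference was -0.913 with the Th2 replicates added and ran from -0.552 to 1.52 as libraries were left out.

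Leaving out a library also turned the sign of some differences between knockout and WT that were not called. For Tdg-iKO in the first cycle, they ran from -0.506 to 1.73 at CpG38, -1.35 to 0.728 at CpG40, -5.66 to 1.74 at CpG41 and -4.12 to 0.669 at CpG42; in the second, from -0.527 to 4.57 at CpG39 and -0.374 to 3.68 at CpG40; between cycles, from -1.87 to 3.23 at CpG39 and -0.0660 to 3.99 at CpG40. For TET-iTKO they ran from -2.90 to 5.87 at CpG39 in the first cycle, -0.0413 to 9.34 at CpG41 and -0.792 to 6.21 at CpG42 in the second, and -0.989 to 4.98 at CpG38, -1.71 to 7.05 at CpG39 and -4.02 to 2.85 at CpG40 between cycles.

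Counts over all Il4 CpGs moved too. A minimum of 500 reads gave 6 of 32 calls from naive to first-cycle WT, 13 of 42 to second-cycle WT, 19 of 38 between cycles in WT, 18 of 37 in Tdg-iKO, 0 of 5 from naive to first-cycle TET-iTKO and 2 of 12 to the second, where the compared groups alone gave 23. The change of the TET-iTKO effect gave up to 1 call against 0. The comparison of WT lines gave 11 with runs kept apart, 0 with limma and 0–16 without a library, against 2. In PB, Tdg-iKO gave 10 without halving and 10 at 2 points against 16, and the CD4-Cre pair 35 at 0.5 points against 23.

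The labels name no animals, so replicate numbers were not taken to pair libraries. Over the 3 naive and Th2 pairs, deviations of same-numbered libraries correlated from -0.0938 to 0.0592. Over 6 pairs among naive and second-cycle WT libraries they correlated from -0.180 to 0.604. The values were 0.592 and 0.347 for Tdg-iKO and WT in the first and second cycle, with 2 libraries each. For TET-iTKO and WT in the first cycle the value was -0.261. The replicate block was added to a fit of the compared groups alone, so its counts reflect both choices. HSII calls were then 0 for TET-iTKO against WT in the first and second cycle and 0 between cycles in TET-iTKO. They were 0 from naive to first- and second-cycle TET-iTKO, and 5 for both falls from naive in WT. They were also 5 for both WT and Tdg-iKO between cycles. For TET-iTKO against WT in the second cycle, the compared groups alone, without the block, already gave 0. Over all CpGs, these fits of the compared groups with the block gave 0 of 35 for TET-iTKO against WT in the first cycle. They gave 0 of 7 between cycles in TET-iTKO, 0 of 5 and 0 of 12 from naive to TET-iTKO and 0 of 2 for the WT lines. Crossed numbers as the block, again with the compared groups alone, gave 1 HSII call for TET-iTKO against WT in the first cycle.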
